A study of Mus musculus with 2 samples.

Results

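Xdh encodes xanthine oxidoreductase, better known as xanthine oxidase, and is described here across the cells of the lung. It is 1 gene (ENSRNOG00000007081) of the 32883 features in the deposited matrices, found by its symbol, and it was chosen by its higher level in the HIR capillary endothelium of these libraries, and for its known place in remote lung injury after liver ischemia. Its differences between the libraries are therefore given as a description. The study sequenced the RNA of single lung cells caught in droplets (10x Genomics), in 2 libraries. The HIR library was taken from wild-type lung 6 h after hepatic ischemia-reperfusion, a procedure that stops and then restores blood flow through the liver, and the sham library from wild-type lung after sham surgery. Strain, sex, age and the number of animals behind a library are not given in the sources used here. Both lungs were digested with collagenase, elastase and DNase, and red cells were lysed. The labels name the mouse, while the features carry rat Ensembl identifiers, and symbols are read here as the files give them.

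Xanthine oxidoreductase carries out the last steps of purine breakdown, turning hypoxanthine into xanthine and xanthine into uric acid. It needs a molybdenum cofactor. The same protein works as a dehydrogenase that hands its electrons to NAD+, or, after oxidation or cleavage, as an oxidase that hands them to oxygen and so releases superoxide and hydrogen peroxide. Ischemic tissue breaks ATP down to hypoxanthine, its substrate, and enzyme released by an injured liver is known to bind to vessel walls elsewhere. RNA counts report neither the form of the protein nor enzyme that arrived through the blood.

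Transcripts were counted as UMIs (unique molecular identifiers), with 50801778 in the HIR library over 9499 barcodes, and 59566745 in the sham library over 10719. After filtering, 7925 HIR and 8574 sham cells were kept, in 30 clusters joined into 24 classes, named X-like from their markers or, for cluster 2, left unnamed. Xdh took no part in forming or naming the classes. The libraries share 24 barcodes. The lung origin shows in the alveolar type 2 epithelium-like class, where the surfactant gene Sftpc took 189425 of each 1000000 UMIs in the HIR library and 217275 in the sham library. Each group is 1 library, so there are no replicates and no test. The parentheses after a value hold 95% intervals that cover counting error only, and a class level is given as CPM, the Xdh UMIs per 1000000 UMIs of the class.

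Over all kept cells Xdh had 6409 UMIs in the HIR library and 2439 in the sham library. That is 155 CPM (151 to 159) in HIR and 52.4 CPM (50.4 to 54.6) in sham, a ratio of 2.96 (2.83 to 3.10). At least 1 Xdh UMI was seen in 40.2% of HIR cells and 19.1% of sham cells. The libraries differ in makeup, and neutrophil-like cells, which carry much Xdh, made up 16.2% of HIR cells and 4.41% of sham cells. With the class shares of the sham library held for both, the ratio was 2.85, and with the shares of the HIR library 2.20. With the levels held at those of sham and only the shares differing it was 1.35, and with the levels of HIR 1.04. Without neutrophil- and monocyte-like cells the level was 129.5 CPM in HIR and 35.7 CPM in sham, a ratio of 3.63 (3.42 to 3.85).

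Of the 24 classes, 18 had at least 100 cells in both libraries, and 17 of these had an Xdh UMI in both. The ratio of HIR over sham lay above 1 with its whole interval in 13 classes, had an interval that holds 1 in 3 and lay below 1 in 1. The 13 include alveolar type 1-like and basophil or mast cell-like cells, whose values rest largely on 1 cluster and on 1 cell. The 7 classes of endothelium, fibroblasts, muscle and cluster 2 lay between 205 and 554 CPM in the HIR library, and between 38.5 and 104 CPM in the sham library, so the ranges did not meet. The class below 1 was nonclassical monocyte-like cells, and classical monocyte-like cells were among those with an interval that holds 1, beside B and T cell-like cells.

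**Figure D1:**
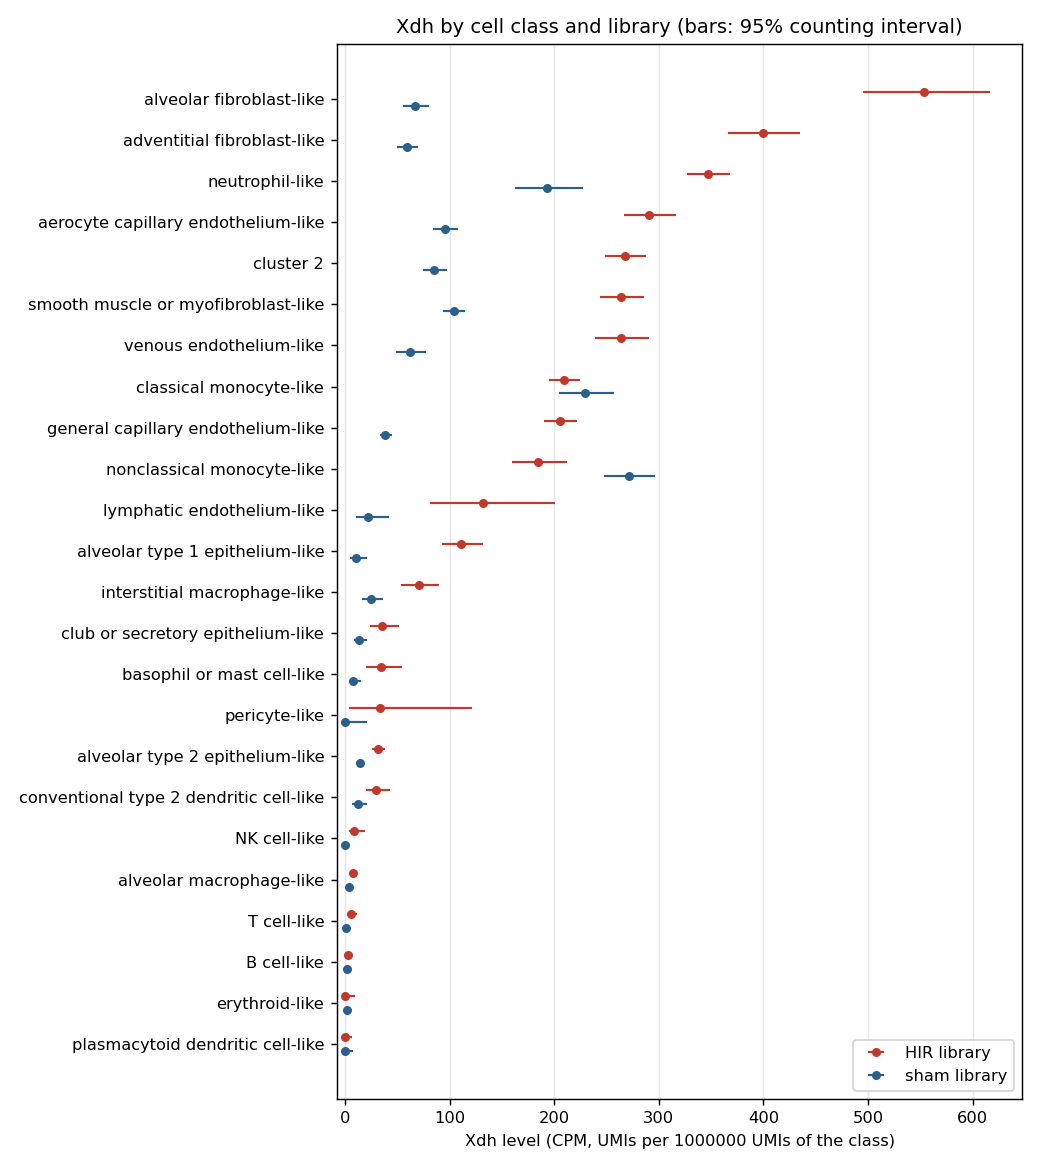
Xdh level by cell class, in CPM on a linear axis, with HIR (red) above sham (blue) in each row and bars for the 95% counting interval; rows are sorted by the HIR level. Alveolar fibroblast-like cells lead the HIR library with 554 CPM and nonclassical monocyte-like cells the sham library with 271 CPM, and the lymphocyte-like classes lie near 0 in both.

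The order of the classes differed between the libraries. HIR was led by alveolar fibroblast-like cells, followed by adventitial fibroblast-like cells and neutrophil-like cells, whose intervals overlap. Aerocyte-like cells, cluster 2, muscle-like and venous endothelium-like cells came next, between 264 and 291 CPM, each overlapping its neighbour. Classical monocyte-like, general capillary-like and nonclassical monocyte-like cells followed between 184 and 209.7 CPM and could not be ordered among themselves. In sham the first places went to nonclassical monocyte-like, classical monocyte-like and neutrophil-like cells, from 271 to 193 CPM, each overlapping the next. A gap followed down to 104 CPM in muscle-like cells and 95.3 CPM in aerocyte-like cells, which overlap each other. General capillary-like cells, with 38.5 CPM, were the lowest of the 7 structural classes with 100 cells in sham, and overlapped the interstitial macrophage-like class below them.

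In the capillary endothelium Xdh was higher in the HIR library in both cell classes. General capillary endothelium-like cells, the common lining cells of the alveolar vessels, had 666 Xdh UMIs over 1226 HIR cells, against 173 over 1481 sham cells. Their level was 205 CPM (190.1 to 222) in HIR and 38.5 CPM (33.0 to 44.7) in sham, a ratio of 5.34 (4.51 to 6.35). Among the 1728 genes of this class that had 100 CPM or more in a library and 50 UMIs over both, 1.5% were over 2-fold higher in HIR, and 5 had a ratio at or above that of Xdh, itself included. Xdh was chosen by its level in the capillaries and passed 100 CPM there only in HIR. This rank and those given for other classes therefore only describe Xdh. A UMI was found in 35.5% (32.8 to 38.2) of the HIR general capillary-like cells and 10.8% (9.27 to 12.5) of the sham ones. Thinned to 1000 UMIs per cell, which left out 74 HIR and 97 sham cells, the shares were 17.3% in HIR and 3.63% in sham. T cell-like cells, which should lack the gene, showed it in 3.23% of HIR cells and 0.673% of sham cells. They were the deeper cells, with a median of 5658 UMIs in HIR and 5511 in sham, against 2377 in HIR and 2668 in sham general capillary-like cells.

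The general capillary-like class joins several clusters that the libraries fill unequally. Most HIR cells (76.6%) lay in cluster 4 and most sham cells, 1366 of 1481, in cluster 11. Within cluster 11 the levels were 222 CPM over 234 HIR cells and 37.3 CPM over 1366 sham cells, a ratio of 5.95 (4.73 to 7.48). Within cluster 4 they were 199.6 CPM over 939 HIR cells and 73.8 CPM over 32 sham cells, a ratio of 2.70 (1.23 to 7.40) that rests on 6 sham UMIs. Split by the depth of the cells, the ratio was 6.21 under 2000 UMIs, 5.09 between 2000 and 5000 and 5.53 above. The ratio was above 5 in shallow and in deep cells. Most positive cells held a single UMI, 293 of 435 in HIR and 149 of 160 in sham, and 8 HIR cells and 0 sham cells held 5 or more.

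Aerocyte capillary endothelium-like cells, the large flat cells of gas exchange, started from a higher sham level. They had 291 CPM (267 to 316) over 451 HIR cells and 95.3 CPM (84.0 to 108) over 512 sham cells, a ratio of 3.05 (2.63 to 3.56). Of 1844 genes measured in the class, 1.36% were over 2-fold higher in HIR, and 8 had a ratio at least that of Xdh. The share of cells with a UMI was 58.8% in HIR and 33.8% in sham, and once thinned 27.1% in HIR and 10.0% in sham. Cluster 14 of the class had 361 CPM in HIR and 113 CPM in sham, and cluster 5 had 245 CPM in HIR and 87.6 CPM in sham. Cluster 5 scored higher for general capillary endothelium (2.011) than for its own name (0.942). General capillary markers reached 42.6% in HIR and 48.6% in sham aerocyte-like cells of their sum in general capillary-like cells. The capillary classes thus overlap in their markers.

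Venous endothelium-like cells had 264 CPM (239 to 291) over 212 HIR cells and 61.7 CPM (48.7 to 77.0) over 155 sham cells. Their ratio was 4.28 (3.36 to 5.53). The background of genes over 2-fold higher was 2.63%, and 13 of 1708 had a ratio at or above that of Xdh. Xdh was seen in 69.8% of HIR and 27.7% of sham cells, and 22 HIR and 2 sham cells held 5 UMIs or more. The single sham cell with the most Xdh held 10 of the 78 sham UMIs. Without the top cell of each library the ratio was 4.57. Lymphatic endothelium-like cells, with only 28 HIR and 55 sham cells, had 131 CPM (81.3 to 201) in HIR and 22.04 CPM (10.1 to 41.8) in sham. Most lymphatic markers were lower in the HIR cells of this class, with Prox1 at 25.0 CPM in HIR and 181 CPM in sham, Flt4 at 6.26 CPM in HIR and 294 CPM in sham and Ccl21 at 8773 CPM in HIR and 49307 CPM in sham, while Lyve1 had 2103 CPM in HIR and 651 CPM in sham. The part of this in the Xdh values was not tested.

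Neutrophils carry Xdh and were more frequent in the HIR library, so their RNA was followed into the vessels. The 15 neutrophil markers, among them S100a8 and S100a9, summed to 584 CPM in HIR and 72.3 CPM in sham general capillary-like cells, against 362413 CPM in HIR and 281332 CPM in sham neutrophil-like cells. Of the 15, 1 was at 0 in HIR and 5 were at 0 in sham capillary cells. Neutrophil RNA in that proportion would bring 0.559 CPM of Xdh to the HIR capillary cells and 0.0495 CPM to the sham ones. In venous-like cells the markers summed to 1747 CPM in HIR and 88.5 CPM in sham, which would bring 1.67 CPM of Xdh in HIR and 0.0607 CPM in sham. Classical monocyte markers, read the same way, would bring 14.5 CPM in HIR and 14.8 CPM in sham venous-like cells. Alveolar fibroblast markers would bring 7.23 CPM in HIR and 0.404 CPM in sham ones. General capillary markers reached 43.5% in HIR and 52.1% in sham venous-like cells of their sum in general capillary-like cells. Read the same way, they would bring 89.4 CPM in HIR and 20.04 CPM in sham venous-like cells, more than the other lists given here. Whether venous-like cells make these markers themselves was not tested. In HIR T cell-like cells the monocyte markers would bring 53.9 CPM, where 5.45 CPM of Xdh was seen. The 3 lymphocyte-like classes together had 5.02 CPM of Xdh in HIR and 1.13 CPM in sham, taken here as a rough measure of free RNA. The part of carried RNA in any class was not tested. Markers of alveolar type 1 epithelium summed to 1477 CPM in HIR and 863 CPM in sham general capillary-like cells, and that class held less Xdh than the capillaries in both libraries.

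The highest levels in the HIR library were in fibroblasts, which in sham lay in the range of the vessels. Alveolar fibroblast-like cells, which support the alveolar wall, had 554 CPM (496 to 617) over 134 HIR cells and 66.9 CPM (55.3 to 80.1) over 364 sham cells, a ratio of 8.28 (6.69 to 10.3). In this class 5.6% of 1680 genes were over 2-fold higher in HIR, and 6 had a ratio at least that of Xdh. Xdh was found in 79.1% of HIR and 25.5% of sham cells, and after thinning in 40.3% of HIR and 6.54% of sham cells. Scaled by TMM factors, which shifted this class by -0.17 on the log2 scale, its ratio was 7.36. At least 5 UMIs were seen in 26 of 134 HIR cells and in 0 of 364 sham cells, where a floor of 3 cells would be 0.824%.

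Adventitial fibroblast-like cells, which surround vessels and airways, had 399 CPM (366 to 435) over 231 HIR cells and 58.9 CPM (49.3 to 69.8) over 349 sham cells, a ratio of 6.78 (5.59 to 8.27). Here 4.4% of 1476 genes were over 2-fold higher, and 5 had a ratio at or above that of Xdh. The share of cells with a UMI was 73.6% in HIR and 26.1% in sham, and once thinned 31.0% in HIR and 5.54% in sham. HIR had 35 cells with 5 or more UMIs and sham 1.

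Smooth muscle or myofibroblast-like cells had the most Xdh of the structural classes in sham and the smallest ratio of them. They stood at 264 CPM (244 to 285) over 613 HIR cells and 104 CPM (93.5 to 115) over 1010 sham cells, a ratio of 2.55 (2.24 to 2.90), where 1.39% of genes were over 2-fold higher. Cluster 24 of this class had 358 CPM in HIR and 156 CPM in sham, and cluster 1 had 208 CPM in HIR and 80.1 CPM in sham. Cluster 2, stromal cells with Wnt11 and Lum among their leading genes that no marker list named, had 268 CPM (248 to 288) over 956 HIR cells and 85.2 CPM (74.1 to 97.5) over 854 sham cells, a ratio of 3.14 (2.69 to 3.68), where 2.28% of genes were over 2-fold higher. In both classes 13 genes had a ratio at or above that of Xdh, of 1441 and 1534.

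**Figure D2:**
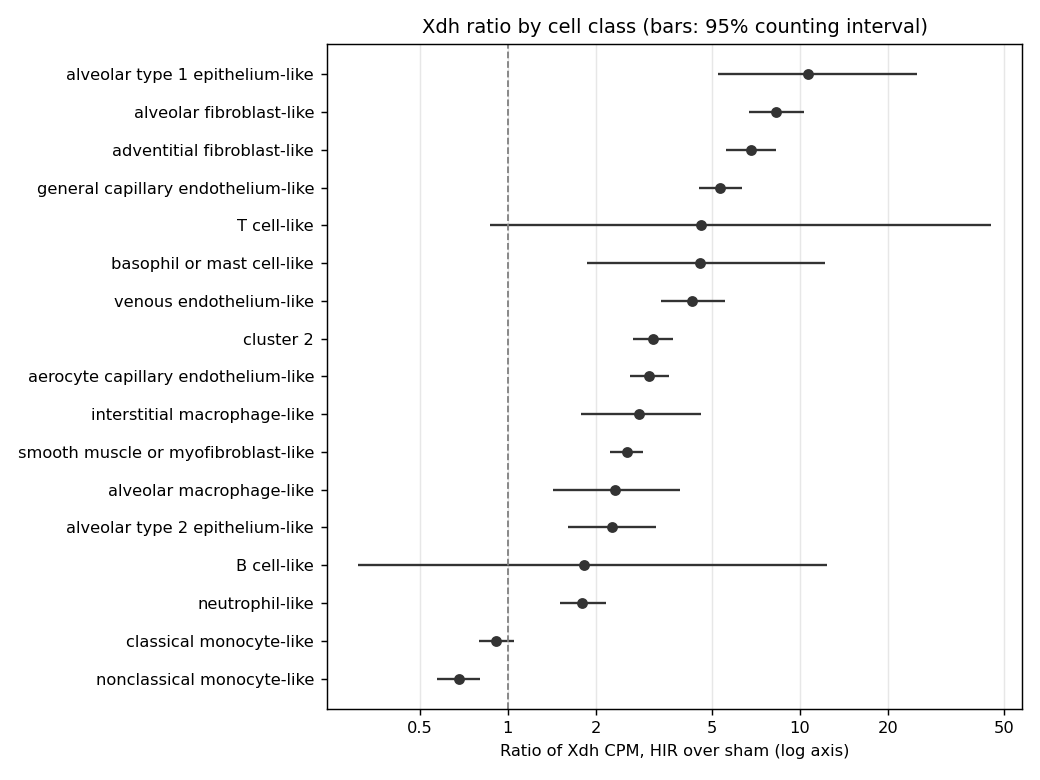
Ratio of the Xdh level, HIR over sham, for the 17 classes with at least 100 cells and an Xdh UMI in both libraries, on a log axis with 95% counting intervals; the dashed line marks a ratio of 1. The 7 classes of endothelium, fibroblasts, muscle and cluster 2 lie between 2.55 and 8.28, neutrophil-like cells at 1.80 and nonclassical monocyte-like cells at 0.680.

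The myeloid cells of the blood held Xdh in both libraries. Neutrophil-like cells, the first phagocytes to reach inflamed tissue, had 347 CPM (327 to 368) over 1280 HIR cells and 193 CPM (162 to 227) over 378 sham cells, a ratio of 1.80 (1.51 to 2.16). In this class 7.63% of 1009 genes were over 2-fold higher in HIR, and 96 had a ratio at least that of Xdh. Cluster 8 held 98.7% of the HIR neutrophil-like cells and cluster 28 held 310 of the 378 sham cells. In cluster 8 alone the levels were 348 CPM in HIR and 186 CPM over 68 sham cells. In cluster 28 they were 180.3 CPM in HIR, from 5 UMIs in 17 cells, and 197 CPM in sham. Some neutrophil markers differed widely, with Ngp at 219 CPM in HIR and 6948 CPM in sham and Camp at 1931 CPM in HIR and 9417 CPM in sham. Il1r2 had 1811 CPM in HIR and 434 CPM in sham, while Retnlg had 3879 CPM in HIR and 3800 CPM in sham. The part of this in the neutrophil Xdh ratio was not tested. Scaled by TMM factors, which shifted this class by 0.54 on the log2 scale, the neutrophil ratio was 2.62.

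Classical monocyte-like cells, the inflammatory monocytes of blood, had 209.7 CPM (195 to 225) over 345 HIR cells and 229 CPM (204 to 257) over 167 sham cells, a ratio of 0.914 (0.799 to 1.05), so a difference was not detectable at this depth. Of 1425 genes in the class 5.19% were over 2-fold lower in HIR. A UMI was seen in 79.7% of HIR and 79.0% of sham cells, and once thinned in 18.8% of HIR and 20.3% of sham cells. Nonclassical monocyte-like cells, the patrolling monocytes of vessels, had 184 CPM (159.7 to 212) over 226 HIR cells and 271 CPM (247 to 297) over 405 sham cells, a ratio of 0.680 (0.574 to 0.804). Of their 1541 genes 4.41% were over 2-fold lower in HIR, and 220 had a ratio at or below that of Xdh. A UMI was seen in 53.5% of HIR and 65.9% of sham cells, and once thinned in 17.0% of HIR and 23.8% of sham cells.

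**Figure D3:**
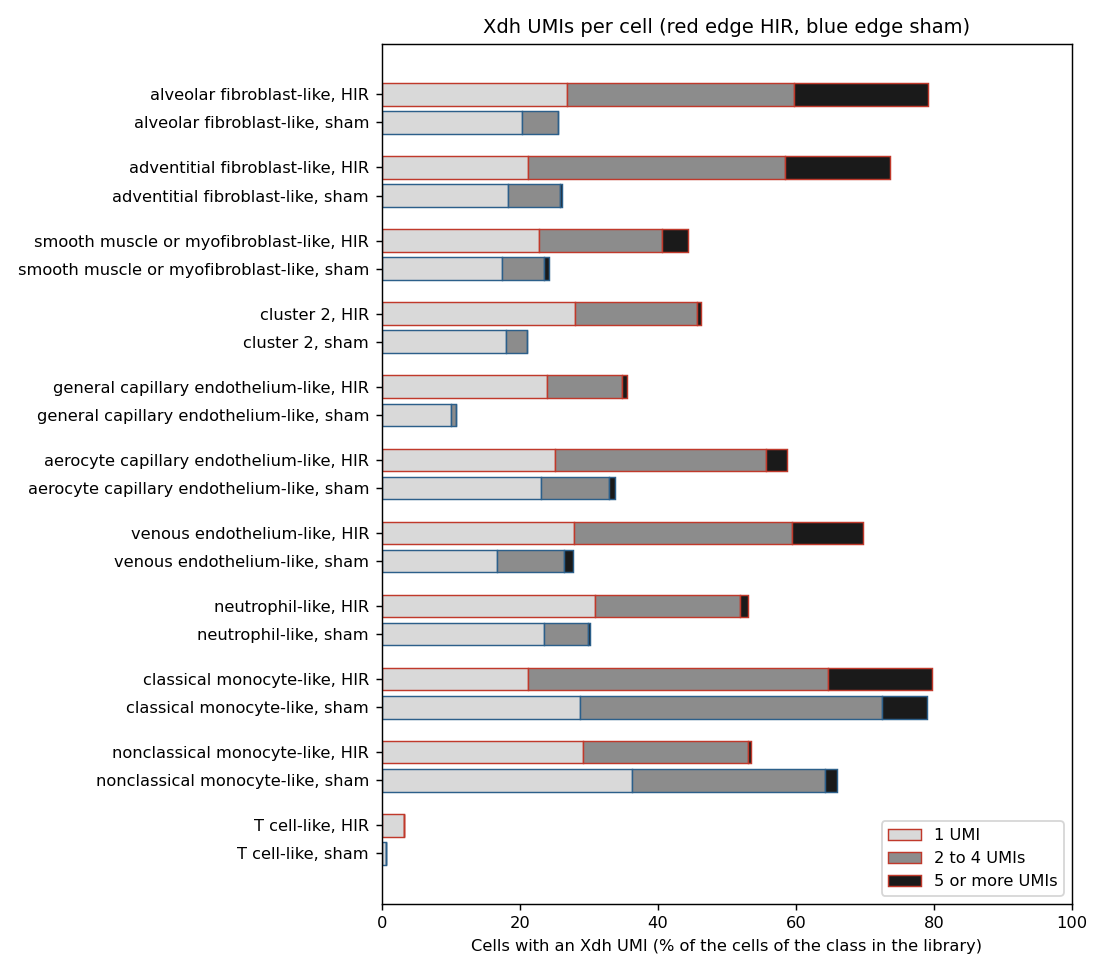
Share of cells (%) with 1 Xdh UMI (light), 2 to 4 (grey) and 5 or more (black) in 11 classes, the HIR bar above the sham bar. Alveolar fibroblast-like cells reach 79.1% in HIR and 25.5% in sham, while classical monocyte-like cells stand at 79.7% in HIR and 79.0% in sham.

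Alveolar macrophage-like and dendritic cell-like cells had little Xdh, and interstitial macrophage-like cells had more. Interstitial macrophage-like cells had 70.2 CPM (53.7 to 90.1) in HIR and 24.9 CPM (16.5 to 35.9) in sham, a ratio of 2.82 (1.78 to 4.59). Alveolar macrophage-like cells had only 7.51 CPM in HIR and 3.23 CPM in sham, from 56 UMIs in HIR and 25 in sham, which is close to the level of lymphocyte-like cells. Their median depth was 20037 UMIs in HIR and 18338 in sham. Type 2 dendritic cell-like cells had 29.4 CPM in HIR and 12.6 CPM in sham, with fewer than 100 cells in each. Plasmacytoid dendritic cell-like cells had 0 UMIs in both libraries, with intervals that reach up to 6.40 CPM in HIR and 7.41 CPM in sham.

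Among the epithelium, alveolar type 2-like cells, the makers of surfactant, had 31.2 CPM (25.3 to 37.9) in HIR and 13.8 CPM (10.3 to 17.9) in sham, a ratio of 2.26 (1.61 to 3.21). Alveolar type 1-like cells, the thin lining of the airspace, had 111 CPM (92.5 to 132) in HIR and 10.4 CPM (4.50 to 20.5) in sham, and of their 1860 genes 7.69% were over 2-fold higher. This ratio of 10.6 rests on cluster 22, which holds 94 HIR and 8 sham cells and 115 of the 128 HIR Xdh UMIs, 21 of them in a single cell. Cluster 22 carries RNA of capillary cells beside that of type 1 cells, with 3112 CPM of the endothelial gene Plvap against 128 CPM in cluster 12, and 3027 CPM of Ager against 18888 CPM. In cluster 12 alone the levels were 22.2 CPM in HIR and 7.29 CPM in sham, from 13 UMIs in HIR and 5 in sham, a ratio of 3.05 (1.02 to 10.9). Club or secretory-like cells had 35.4 CPM over 29 HIR cells and 13.4 CPM over 41 sham cells.

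Lymphocyte-like and other rare classes had few Xdh UMIs. B cell-like cells had 4 Xdh UMIs in HIR and 3 in sham, T cell-like cells 7 in HIR and 2 in sham, and NK cell-like cells 6 in HIR and 0 in sham. Erythroid-like cells had 0 UMIs in HIR and 2 in sham, and pericyte-like cells 2 in HIR and 0 in sham. Basophil or mast cell-like cells had 34.0 CPM in HIR and 7.45 CPM in sham, but 10 of the 17 HIR UMIs came from 1 cell. Without the top cell of each library their ratio was 3.85 (0.980 to 18.0). The mast cell genes of this class were nearly all in its sham cells, with Cpa3 at 10.0 CPM in HIR and 265 CPM in sham, Cma1 at 2.0 CPM in HIR and 448 CPM in sham and Ms4a2 at 0 in HIR and 63.3 CPM in sham. Its cluster scored higher for T cells (2.335) than for its own name (1.451), and the T cell genes Icos and Il2ra are among its leading genes. The HIR and sham cells under this name thus differ in several of its defining markers.

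The Xdh transcripts were spread over several groups of cells in both libraries. Fibroblast-, muscle-, pericyte-like cells and cluster 2 together held 34.5% of the Xdh UMIs in both libraries. Neutrophil- and monocyte-like cells held 32.9% in HIR and 37.5% in sham, although their share of all UMIs was 19.6% in HIR and 8.14% in sham. Within that group the classes differed in opposite directions. Neutrophil-like cells alone held 17.4% of the Xdh UMIs in HIR and 5.82% in sham, nonclassical monocyte-like cells 3.12% in HIR and 19.4% in sham, and classical monocyte-like cells 12.4% in HIR and 12.3% in sham. Endothelium-like cells held 25.8% in HIR and 21.2% in sham, and epithelium-like cells 3.98% in HIR and 3.40% in sham.

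**Figure D4:**
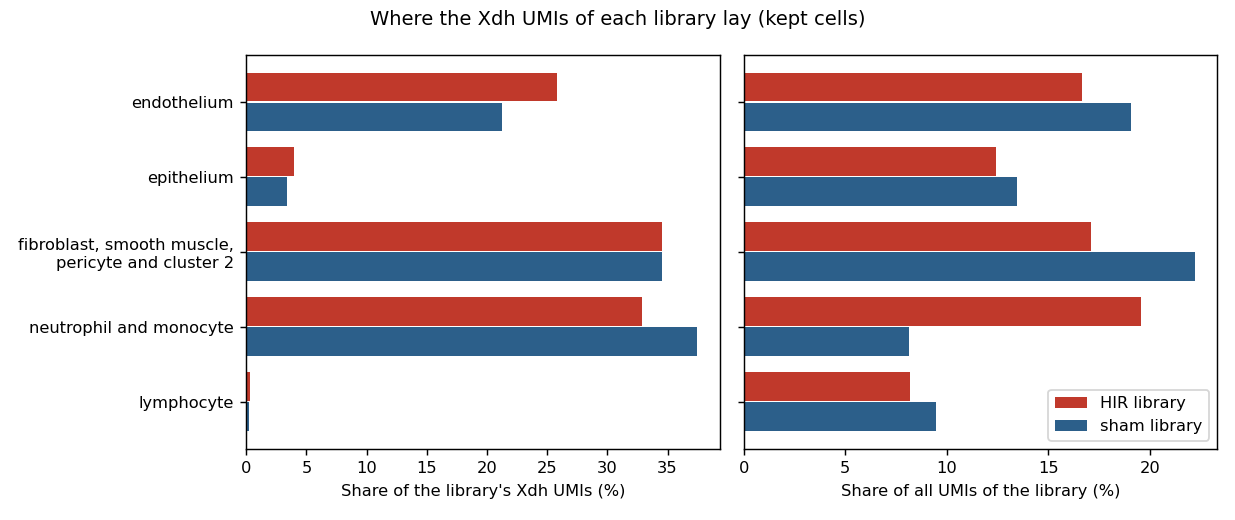
Share of each library's Xdh UMIs (left, %) and of all its UMIs (right, %) in 5 groups of classes, with the HIR bar above the sham bar. Neutrophil- and monocyte-like cells together hold 32.9% of the Xdh UMIs in HIR and 37.5% in sham, on shares of all UMIs of 19.6% in HIR and 8.14% in sham.

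The few measured enzymes next to Xdh in purine breakdown had a somewhat lower median in the HIR capillaries. Of 17 purine breakdown genes in the files, 5 reached 50 CPM in general capillary-like and in aerocyte-like cells, and 0 of them were over 2-fold apart in either class. Over all genes with 50 CPM, 1.45% were over 2-fold higher and 1.45% over 2-fold lower in general capillary-like cells, and 1.16% and 1.1% in aerocyte-like cells. The median log2 ratio of the 5, after 10 CPM was added to each value, was -0.47 in general capillary-like and -0.40 in aerocyte-like cells, and that of all genes with 50 CPM was -0.03 in general capillary-like and -0.02 in aerocyte-like cells. For the list members measured in other structural classes it was 0.24 in cluster 2, 0.19 in alveolar fibroblast-like and 0.09 in muscle-like cells. In adventitial fibroblast-like cells it was -0.01 and in venous-like cells -0.20. Pnp, which frees hypoxanthine and guanine from their nucleosides, had 256 CPM in HIR and 421 CPM in sham general capillary-like cells, and 321 CPM in HIR and 437 CPM in sham aerocyte-like cells. Hprt1, which returns hypoxanthine to nucleotides, had 62.3 CPM in HIR and 81.2 CPM in sham general capillary-like cells. Uox, which breaks uric acid down further in rodent liver, had 1 UMI among the HIR cells and 3 among the sham cells.

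Only 3 purine carriers had 50 CPM in each capillary class, too few to read as a group, and 2 of them were over 2-fold higher in HIR. Over all genes with 50 CPM, 1.45% were over 2-fold higher in general capillary-like cells and 1.16% in aerocyte-like cells. Slc43a3, which carries purine bases such as hypoxanthine across the cell membrane, had 542 CPM in HIR and 122 CPM in sham general capillary-like cells, a ratio of 4.45 (4.04 to 4.90), and 497 CPM in HIR and 146 CPM in sham aerocyte-like cells, a ratio of 3.40 (3.02 to 3.84). Slc28a2, which concentrates purine nucleosides with sodium, had 54.6 CPM in HIR and 13.6 CPM in sham general capillary-like cells, and 56.4 CPM in HIR and 17.4 CPM in sham aerocyte-like cells. Slc28a2 thus reached 50 CPM only in HIR. Slc29a1, the main equilibrating nucleoside carrier, had 992 CPM in HIR and 1356 CPM in sham general capillary-like cells, a ratio of 0.731, and 1082 CPM in HIR and 1441 CPM in sham aerocyte-like cells. Outside the capillaries, Slc43a3 had 908 CPM in HIR and 204 CPM in sham alveolar fibroblast-like cells, and 135 CPM in HIR and 166 CPM in sham neutrophil-like cells.

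**Figure D5:**
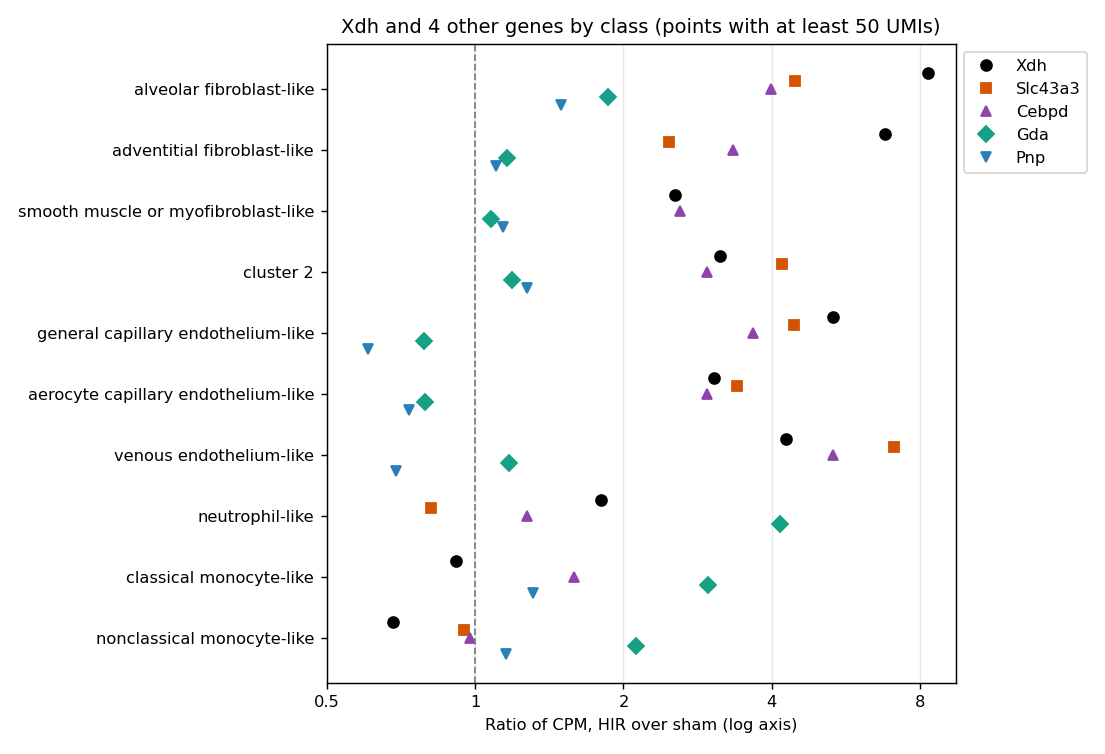
Ratio of CPM, HIR over sham, on a log axis for Xdh, the purine base carrier Slc43a3, the transcription factor Cebpd and the purine enzymes Gda and Pnp in 10 classes, shown where a gene had at least 50 UMIs over both libraries. In general capillary-like cells Xdh (5.34), Slc43a3 (4.45) and Cebpd (3.66) lie to the right of 1 and Gda (0.789) and Pnp (0.607) to the left.

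Genes of the molybdenum cofactor, without which the enzyme is inactive, gave few values. Of 12 listed, 2 reached 50 CPM in the capillary classes and 0 were over 2-fold apart, too few to read against the 1.45% of all general capillary-like genes past 2-fold in each direction. Mocs2, a subunit of molybdopterin synthase, had 84.2 CPM in HIR and 71.2 CPM in sham general capillary-like cells, and Marc2, another molybdenum enzyme, 97.1 CPM in HIR and 104 CPM in sham. Aox3, an aldehyde oxidase and relative of Xdh, had 0 UMIs in HIR and 1 in sham general capillary-like cells. In alveolar fibroblast-like cells, a class outside the naming rule and chosen after its values were seen, Aox3 had 133 CPM in HIR and 30.3 CPM in sham, a ratio of 4.38 (3.05 to 6.32), and in adventitial fibroblast-like cells 105 CPM in HIR and 38.4 CPM in sham.

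Other makers of reactive oxygen were too few to read as a group. Of the 15 listed genes in the files, 3 reached 50 CPM in general capillary-like and 2 in aerocyte-like cells, and 0 of them were over 2-fold apart, where 1.45% of all general capillary-like genes were higher and 1.45% lower. Cyba, the membrane subunit shared by NADPH oxidases, had 242 CPM in HIR and 273 CPM in sham general capillary-like cells. Of the 13 enzymes that remove superoxide or hydrogen peroxide and reached 50 CPM, 1 was over 2-fold higher and 0 were over 2-fold lower in each capillary class. In aerocyte-like cells 1.16% of all genes with 50 CPM were over 2-fold higher and 1.1% lower. The higher gene, Gpx3, a secreted glutathione peroxidase, had 53.0 CPM in HIR and 26.5 CPM in sham general capillary-like cells. In aerocyte-like cells it had 114 CPM in HIR and 56.5 CPM in sham, and both differences were just past the 2-fold limit. In general capillary-like cells Gpx3 reached 50 CPM only in HIR. Txn1, a thioredoxin, had 768 CPM in HIR and 980 CPM in sham general capillary-like cells.

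Across the 36 combinations of class and library, the 8 genes whose level followed Xdh most closely, of 4192 compared, were Cebpd (Pearson r of 0.90), Tnfrsf1a (0.87), Kif1b (0.76), Cdc42ep4 (0.74), Fas (0.73), Mtus1 (0.73), Zfand3 (0.73) and Gda (0.71). These points come from only 2 libraries and share their depth, so the values describe likeness and carry no p. Cebpd, a transcription factor of acute inflammation, had 1225 CPM in HIR and 334 CPM in sham general capillary-like cells, 1319 CPM in HIR and 331 CPM in sham alveolar fibroblast-like cells, and 183 CPM in HIR and 187 CPM in sham nonclassical monocyte-like cells. Tnfrsf1a, the main receptor for tumour necrosis factor, had 148 CPM in HIR and 95.2 CPM in sham general capillary-like cells, and 80.6 CPM in HIR and 140.0 CPM in sham classical monocyte-like cells. Fas, a receptor that can set off cell death, had 177 CPM in HIR and 49.97 CPM in sham nonclassical monocyte-like cells, a difference opposite to that of Xdh there, and 26.5 CPM in HIR and 24.7 CPM in sham general capillary-like cells. Gda, which makes xanthine from guanine, had 430 CPM in HIR and 203 CPM in sham nonclassical monocyte-like cells, 101 CPM in HIR and 24.4 CPM in sham neutrophil-like cells, and 124 CPM in HIR and 157 CPM in sham general capillary-like cells. Its likeness to Xdh thus comes with a lower value in HIR in the capillaries, where Xdh was higher.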

How the data were processed

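The 2 deposited matrices hold whole-number counts, UMIs per gene and barcode. Per the submitters' processing notes, the authors used Cell Ranger 6.0, STAR, Seurat 4.0 and the mouse build mm10, while per the file headers cellranger 5.0.0 wrote the matrices. The settings are not given in the sources used here. Barcodes under 200 genes or above 20% mitochondrial UMIs were left out. The highest Scrublet scores were removed as doublets, at 0.8% per 1000 barcodes (722 HIR and 919 sham).

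Cells of both libraries were clustered together in scanpy 1.11.5 (2000 variable genes, 30 principal components, 15 neighbours, Leiden resolution 1.0 with igraph 0.11.9), without Xdh. Clusters were named from 30 marker lists (at least 3 markers over 2-fold, a score of at least 0.8). Xdh, the gene lists, the marker lists and the alternatives were chosen with earlier results of these data known. Named genes are the 8 most like Xdh, by the correlation of log2(CPM + 10), and members of 5 lists that were over 2-fold apart or had the most UMIs of their list in general capillary- or aerocyte-like cells, with 50 CPM in either library, apart from examples named as such.

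CPM are UMIs summed over a class, divided by its total. Ratios of CPM have exact intervals from the binomial split of the counts, levels exact Poisson intervals and shares Clopper-Pearson intervals (95%). A floor is 3 counts. TMM factors came from edgeR 4.0.16. The ratio intervals were also run on simulated Poisson counts. These follow the same counting model as the intervals, so they cannot show spread between cells, libraries or animals. Cells are not replicates, so no p-value was computed. Alternatives were another resolution, each cell or library alone, other filters, doublets kept, per-cell means and other denominators. Hprt1, Slc43a3 outside the capillaries and Aox3 were named as examples after their values were seen.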

Additional observations from a re-analysis of the deposited data

How the results depend on the processing

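No paired analysis was possible because each group is 1 library. Of 162 ratios recomputed under other settings, 145 moved by less than their interval, 16 by more and 1 turned. Among them, cluster 2 goes by its number only. With another resolution, the stricter filter or doublets kept, that number may therefore cover other cells. Its interval was 2.69 to 3.68 in the main setting and 1.87 to 4.26 with doublets kept. The venous endothelium-like ratio stayed between 4.09 and 4.77. The general capillary-like ratio was 4.42 with each cell assigned alone, 3.62 with a stricter filter on cells (at least 500 genes, at most 10% mitochondrial UMIs) and 2.70 in cluster 4 alone. The aerocyte-like ratio was 3.85 with each library clustered alone, and that of all kept cells 3.16 as a mean of per-cell CPM. The basophil or mast cell-like ratio was 0.0 with the stricter filter. The cause was not tested. This class and cluster 2 have no value with each cell assigned alone, with each library clustered alone or without a filter, since no class of that name was formed in both libraries. Clusters with Wnt11 and Lum among their leading genes were formed, unnamed, without a filter and in each library alone.

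The share of general capillary-like cells with an Xdh UMI was 17.3% in HIR and 3.63% in sham once thinned, 40.0% in HIR and 14.01% in sham with each cell assigned alone, and 45.0% in HIR and 18.6% in sham with the stricter filter; in HIR it was 39.9% with each library clustered alone. For aerocyte-like cells it was 27.1% in HIR and 10.0% in sham once thinned and 50.9% in HIR and 24.2% in sham with the stricter filter; it was 50.6% in HIR with each library clustered alone and 27.1% in sham with each cell assigned alone. Of the 8 genes most like Xdh, 5 stayed with log2(CPM + 1) and 5 with Spearman's correlation. Ratios within single clusters and with fixed class shares were added after the data were seen. TMM factors shifted T cell-like cells by -0.13 and classical monocyte-like cells by 0.13 on the log2 scale, and the classical monocyte ratio was then 0.997. The alveolar type 1-like ratio lay between 2.43 and 11.1. Depth limits every class with few Xdh UMIs, and with 1 library per group neither the spread between animals nor any library effect can be told apart from HIR.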
